A study of Homo sapiens with 2 samples.

Results

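The glycerol-3-phosphate dehydrogenase genes GPD1L, GPD1 and GPD2 were followed in KYSE-170, a line of human squamous carcinoma of the oesophagus, after transfection with miR-210 or with an oligoribonucleotide that the labels call ncRNA. The members were the probes whose platform gene symbol, brought to its current name, was one of these 3 genes. This gave 3 probes of 24267 on the array, 1 for each gene, out of 12445 named genes. The probes are H200006943 for GPD1L, H200020300 for GPD1 and H300016235 for GPD2.

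Both groups were the same line grown in Ham's F-12/RPMI 1640 with 5% fetal bovine serum, and both received their oligoribonucleotide with the Hiperfect reagent. They differed, as far as the labels say, only in the oligoribonucleotide. The labels give neither its dose, nor the time to harvest, nor the sequence of ncRNA, nor which arm of miR-210 was supplied. Total RNA was read on 1 single-colour Cy5 array per transfection, so every difference below has no replicate and no p-value, and a difference between cultures cannot be separated from one between transfections.

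Glycerol-3-phosphate dehydrogenases interconvert dihydroxyacetone phosphate, an intermediate of glycolysis, and glycerol 3-phosphate, the backbone of membrane and storage lipids. GPD1 is the cytosolic, NAD-dependent enzyme, best known from liver, muscle and fat. GPD1L is its close relative, which is known for its effect on the cardiac sodium channel and as a reported target of miR-210 in hypoxia. GPD2 is the flavin-containing enzyme of the inner mitochondrial membrane. It oxidises glycerol 3-phosphate and passes the electrons to ubiquinone, so that with a cytosolic partner it completes the glycerol phosphate shuttle, which moves reducing power from cytosolic NADH to the respiratory chain.

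The agent itself is shown first, because GPD1L is discussed as a target of its guide strand. A microRNA finds most of its targets through its seed, bases 2 to 8, which are in capitals in both mature sequences that RefSeq gives for the MIR210 gene (GRCh38.p14, minus strand).
hsa-miR-210-3p: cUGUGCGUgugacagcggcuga
hsa-miR-210-5p: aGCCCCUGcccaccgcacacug
The 3p arm lies at chr11:568112-568133 and the 5p arm at chr11:568150-568171. The 3p arm is the one that is usually meant by miR-210. No other of the 2370 mature microRNA names in the RefSeq table shares the seed of either arm. A messenger RNA with full pairing to the 3p seed carries ACGCACA. Transcript sequences of GPD1L, GPD1 and GPD2 were not used here, so no site is given for any of them.

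GPD1L was lower and GPD2 was higher on the miR-210 array, each by more than 2-fold, while GPD1 was at the bottom of the intensity range on both arrays. GPD1L was 2.32-fold lower with miR-210 and GPD2 was 2.20-fold higher. Their log2 ratios, always miR-210 over ncRNA and after quantile normalization of the arrays, were -1.21 and 1.14. A measure of error was taken from other genes that have several probes. A single probe scattered around its gene with a SD of 0.44 on the log2 scale (251 genes, 2 probes each). The ratio of GPD1L was 2.78 times that SD and the ratio of GPD2 2.61 times. That SD leaves out any variation between cultures and arrays. Log2 ratios of probes within 0.5 log2 units of the gene's mean level had a larger SD, 0.55 for GPD1L and 0.55 for GPD2.

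**Figure D1:**
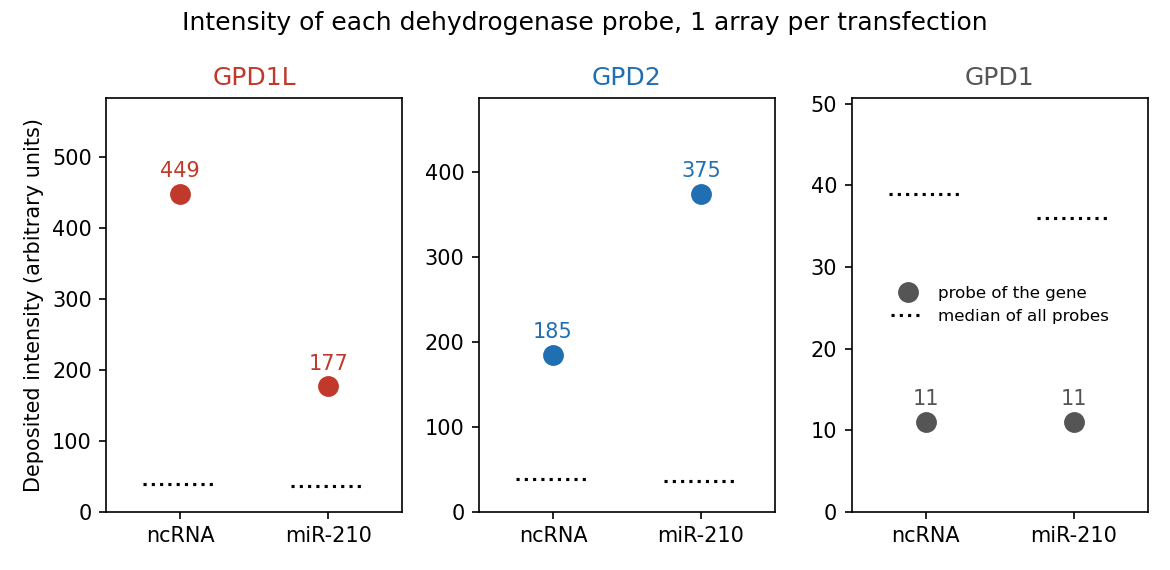
Deposited intensity, in arbitrary units on a linear axis that starts at 0 in each panel, of the 1 probe of GPD1L, GPD2 and GPD1 for both transfections. Points are single measurements without error, and dotted lines are the median of all probes of that array (39 and 36). GPD1L goes from 449 to 177, GPD2 from 185 to 375, and GPD1 reads 11 on both arrays, under both dotted lines.

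Of the cytosolic members, GPD1L read 449 with ncRNA and 177 with miR-210 in deposited intensity. Its signal was thus well above the array medians of 39 and 36 on both sides, and its ratio does not rest on a reading near the floor. The normalized level with miR-210 was 43.1% of the level with ncRNA. Among the 6684 genes that passed the level filter, GPD1L ranked 120 from the lowest ratio. In the whole comparison 3.19% of the genes kept were at least 2-fold lower, 213 in number, and 6.21% were 2-fold apart in either direction, so a ratio of this size was not rare. Among the 1937 probes within 0.5 log2 units of its mean level, 39 had a ratio as low or lower, which is 2.01% of them. The central 90% of those probes lay between -0.86 and 0.86.

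GPD1, the classical cytosolic enzyme, read 11 with ncRNA and 11 with miR-210. These values stood at percentiles 11.3 and 11.2 of all probes of their arrays, and the probe did not pass the level filter, which was set at an intensity of 37.5. Its log2 ratio of 0.00 is therefore no measurement of equal expression. Probes of similar level scattered with a SD of 0.98, and their central 90% ran from -1.68 to 1.59. Markers of fat, liver and muscle, tissues known for GPD1, had a median intensity of 10.5 with ncRNA and 23 with miR-210 over the 8 on the array. They ranged from 3 to 98 and from 7 to 104, and 6 of the 8 were, like GPD1, under the filter. A change of GPD1 within about -1.68 to 1.59 on the log2 scale could not be told from the scatter of probes at this signal.

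GPD2, the mitochondrial member, had an intensity of 185 with ncRNA and 375 with miR-210. Both readings were above the array medians, and its direction was opposite to that of GPD1L. It ranked 135 from the highest ratio among the genes kept, where 202 genes or 3.02% were at least 2-fold higher. Of 1950 probes of similar level, 40 had a ratio as high or higher, or 2.05%. The log2 ratios of GPD1L and GPD2 lay 2.35 apart. The SD expected for a difference of 2 genes from the spread between probes was 0.62. Such a distance is 3.81 times that SD, which leaves out any variation between cultures and arrays. With the larger SD of probes of similar level, 0.55 per gene in place of 0.44, the multiple would be smaller. The levels of the 3 probes were not set against each other, since probes differ in how brightly they bind.

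**Figure D2:**
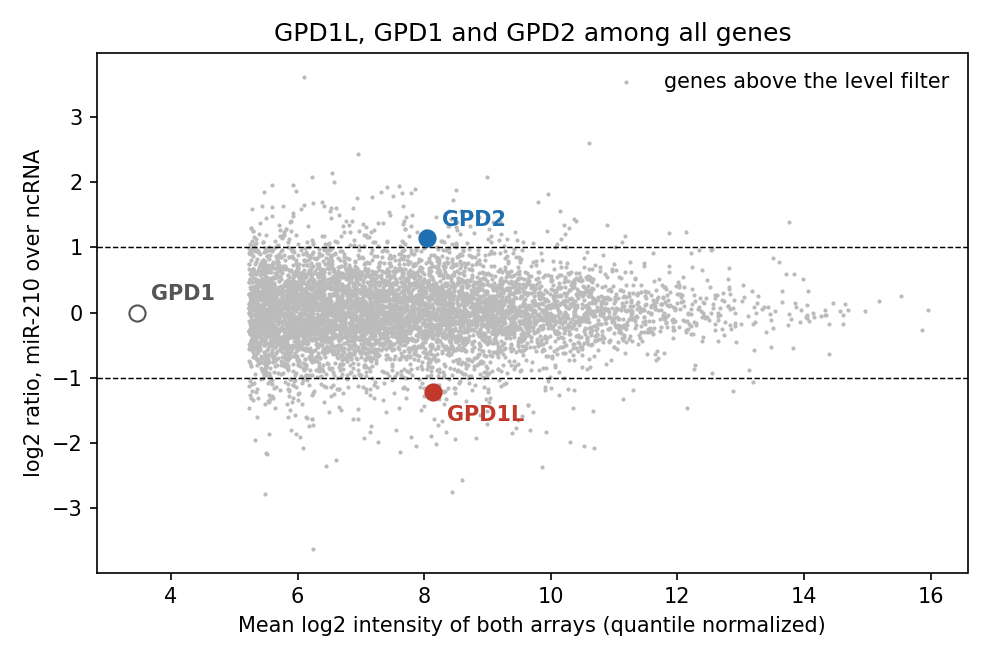
Each grey point is 1 of the 6684 genes above the level filter, with its mean log2 intensity over both arrays on the horizontal axis and its log2 ratio of miR-210 over ncRNA on the vertical axis; dashed lines mark 2-fold. GPD1L and GPD2 (filled) lie outside the dashed lines on opposite sides at nearly the same mean level, and GPD1 (open) lies left of the genes that passed the filter.

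None of the 3 genes has a second probe on the array, so neither ratio could be checked within the arrays. How far a second probe bears out a first can be read from other genes. Of 12 genes with several kept probes whose brighter probe was at least 2-fold lower, the other probe was under 0 in 9 and at least 2-fold lower in 1. Of 5 such genes at least 2-fold higher, the other probe was above 0 in 5 and at least 2-fold higher in 2. A second probe past 2-fold on the same side is also counted as sharing the direction, so the size count cannot exceed the direction count. Of all genes kept, 48.6% were under 0. Across the 251 genes with several kept probes, the log2 ratios of the 2 probes had a Spearman rho of 0.29.

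Between-array scaling did not turn either gene. Over 9 settings the log2 ratio of GPD1L ran from -1.34 to -1.03 and that of GPD2 from 0.95 to 1.14. The settings that changed only the level filter or the choice of probe could not move either ratio, since each gene has 1 probe. GPD1L was at least 2-fold lower in every one of these settings. GPD2 was under 2-fold in 1 of them, with an offset of 50 added to every intensity, at 0.95. The scaling without normalization set the median gene at -0.12. Relative to that median GPD1L stood at -1.23 and GPD2 at 1.14. An offset keeps the order of the readings, and the scalings differed by little beside these ratios. The settings could therefore hardly have turned either gene.

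**Figure D3:**
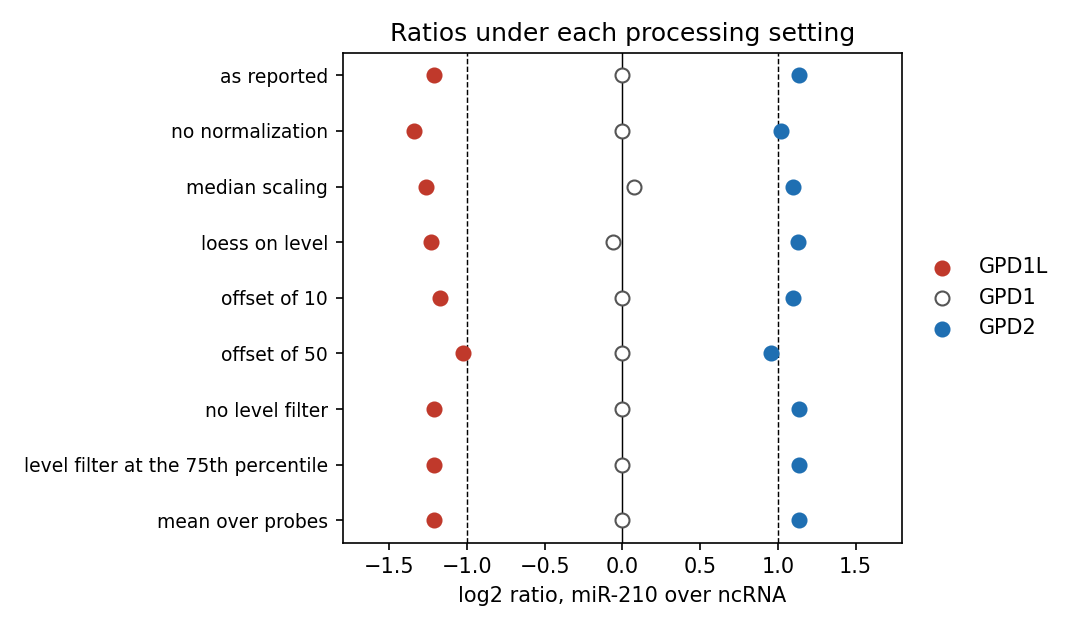
Log2 ratio of miR-210 over ncRNA (horizontal axis) of GPD1L, GPD2 and GPD1 under each processing setting (rows); dashed lines mark 2-fold and the open symbols of GPD1 mark that it did not pass the level filter, except in the setting without one. GPD1L stays left of -1 in all rows and GPD2 stays between 0.95 and 1.14.

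The genes around these enzymes were described with 5 lists on the glycerol phosphate pathway, which together named 61 genes, of which the array held 50, and 33 of them were bright enough to be kept. Of these 33, 22 were under 0 and 10 above it, and their median log2 ratio was -0.10, beside 0.01 for all genes kept, of which 48.6% were under 0. None was at least 2-fold lower and 1 was at least 2-fold higher, where all genes kept gave 3.19% and 3.02%, so these counts are near the background of the arrays and say nothing particular of the pathway. No gene of the 33 had a ratio as low as that of GPD1L. Of all genes kept 1.8% did, GPD1L included, so that count is also near the background.

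That 1 gene was SLC25A13, which encodes citrin, an aspartate and glutamate carrier of the inner mitochondrial membrane. It belongs to the malate-aspartate shuttle, the other main route for electrons of cytosolic NADH. Its intensity was 296 with ncRNA and 570 with miR-210, a 2.09-fold higher level. It fell short of 2-fold without normalization (log2 ratio 0.95) and with the offset of 50 (0.94). The other members of this list lay closer to 0. Of 10 genes that passed the filter, 5 were under 0 and 5 above, with a median of 0.00. MDH2, the mitochondrial malate dehydrogenase, stood at -0.45 and the cytosolic MDH1 at -0.16. The lactate dehydrogenases LDHA and LDHB stood at 0.04 and 0.22. SLC25A12, the carrier most like citrin, stood at -0.03 with intensities of 136 and 125.

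The list of glycolytic genes around dihydroxyacetone phosphate, which includes GAPDH and phosphofructokinases, had 5 genes of 8 above the filter, 4 of them under 0. Its median was -0.18. PFKM, a phosphofructokinase, stood at -0.29, and ALDOC, an aldolase, at 0.43. GAPDH, at -0.28, read 65496 on the ncRNA array, which is at the limit of a 16-bit scanner. That reading may be cut off, so the size of its decrease is uncertain. Over the settings its log2 ratio ran from -0.51 to -0.19. Upstream of glycerol 3-phosphate, only AQP10, an aquaglyceroporin, passed the filter of 5 genes on the array, at -0.23 with intensities of 85 and 67. The glycerol kinase gene GK2 was below it, at 20 and 13.

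Downstream, glycerol 3-phosphate is acylated and turned into phosphatidate and triacylglycerol. In that list 8 of 15 genes on the array passed the filter, with 6 under 0 and a median of -0.15. GPAM, the mitochondrial acyltransferase that starts the path, stood at -0.36 with intensities of 377 and 269. The lipid phosphate phosphatases PLPP3 and PLPP2 stood at -0.50 and 0.27. No gene of this list was 2-fold apart among those kept. The list of enzymes that, like GPD2, deliver electrons to ubiquinone also held ETFA and ETFB, which pass electrons to ETFDH. It gave 9 kept genes of 10, with 6 under 0, 2 above and a median of -0.11. SQOR, the sulfide-quinone oxidoreductase, was the farthest, at -0.80 with 629 and 337. ETFDH, which serves fatty acid oxidation, stood at 0.35 and ETFA, a subunit of its electron donor, at -0.28. SDHA, SDHB and SDHC of succinate dehydrogenase lay between -0.10 and 0.05.

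**Figure D4:**
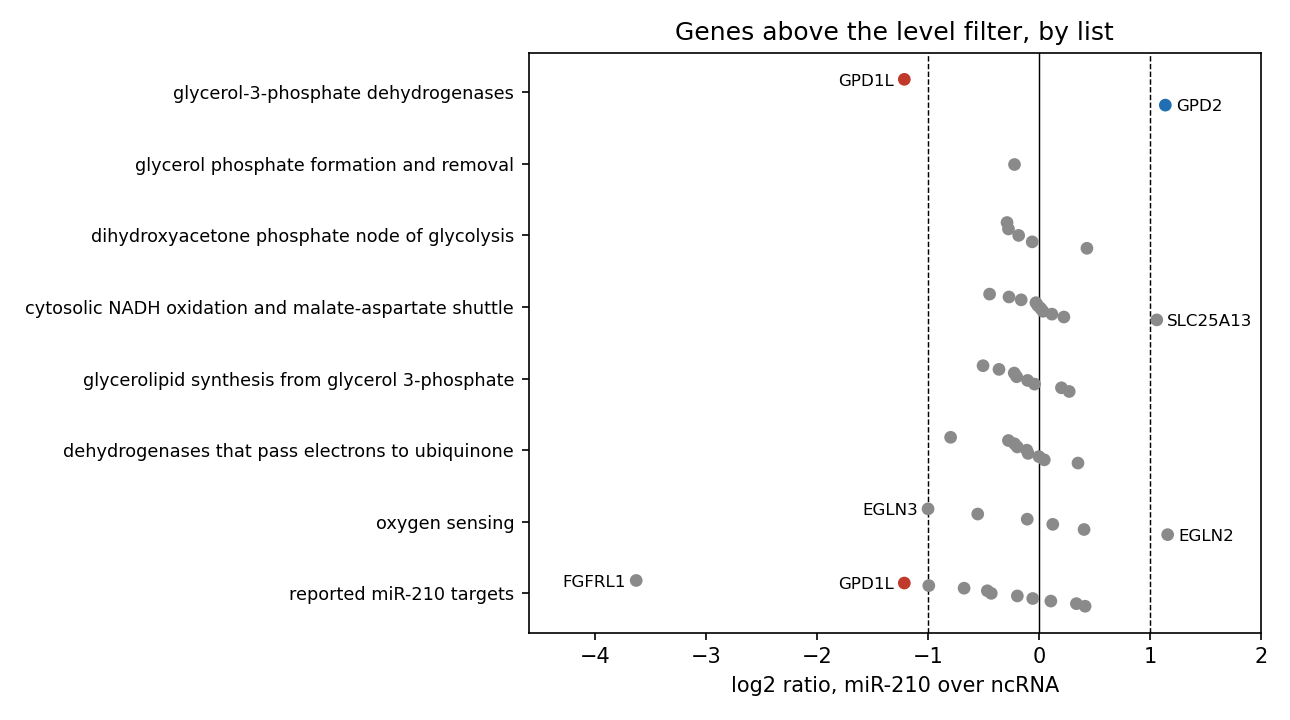
Log2 ratio of miR-210 over ncRNA (horizontal axis) of each gene above the level filter in 8 lists (rows), 1 point per gene; dashed lines mark 2-fold, and the vertical offset within a row only separates points. GPD1L and GPD2 lie on opposite sides in the top row. Among the genes of the 5 pathway lists below it SLC25A13 alone is past 2-fold, which it is not without normalization or with the offset of 50.

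Among genes reported as miR-210 targets, GPD1L had the second lowest ratio. The list held 15 genes, of which the array named 12 and 11 were kept. Of these 11, 8 were under 0 and 3 above, beside 48.6% under 0 among all genes kept. The median of the list was -0.43, and -0.31 over the other 10 when GPD1L was left out. Only FGFRL1 was lower, with intensities of 277 and 21. Its reading with miR-210 lay under the array median of 36, so the size of its log2 ratio of -3.63 is uncertain, and it was -2.15 with the offset of 50. COX10, an assembly factor of cytochrome c oxidase, came next at -0.99 with 116 and 54. The 3 genes above 0 were E2F3 (0.11), PTPN1 (0.34) and CASP8AP2 (0.42), and EFNA3 stood at -0.06. This list was drawn up with such genes in mind and with earlier results of these data known, so its direction is no independent evidence.

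GPD1L has been linked to the hydroxylation of the hypoxia-inducible factor, and 9 genes of oxygen sensing were therefore listed. Of these 6 passed the filter, with 3 under 0, 3 above and a median of 0.01. The prolyl hydroxylase genes differed in direction. EGLN2 read 37 and 77, a log2 ratio of 1.16, and EGLN3 read 64 and 30, which is 2-fold lower. Each has a reading close to the array medians, and with the offset of 50 they stood at 0.60 and -0.47. EGLN1 stood at 0.41 and HIF1A, the factor itself, at -0.11 with 286 and 245. Of the sodium channel genes and their partners 4 were on the array and none passed the filter, with intensities from 7 to 30.

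The 5 genes nearest to GPD1L in the pair of log2 levels over the 2 arrays were MIGA2, CCM2, CLDN1, SPRED2 and SAS. Their distances were between 0.03 and 0.16 log2 units and their log2 ratios between -1.32 and -1.11. SAS is a former symbol of more than 1 current gene and was left as the platform gives it. MIGA2, an outer mitochondrial membrane protein, was the nearest, with 457 and 177. CLDN1, a tight junction protein, had 474 and 182. With 2 arrays such likeness only means a similar pair of readings.

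Facts of both arrays bear on all of these values. Intensities had a Spearman rho of 0.92 over all probes, as a description. Of the 9 epithelial markers on the array, squamous and general, 8 passed the filter. EPCAM, a general one, read 4502 and 6165, KRT5 290 and 496, and SOX2 90 and 43, while TP63 (57 and 22) did not pass. Their summed intensity was 18439 and 14555, but SFN alone gave 12693 and 7094, and without it the sum was 5746 and 7461, so the sum has no direction of its own. Of the markers of fat, liver and muscle 2 of 8 passed, PLIN1 at 98 and 104 and MB at 47 and 33. Their summed intensity was 202 and 243. Of those of fibroblasts and leukocytes 1 of 8 passed, DCN at 183 and 181, and their summed intensity was 283 and 290. The part of any of these in the ratios of GPD1L and GPD2 was not tested. In bulk RNA, fewer cells that express a gene and less of its RNA per cell cannot be told apart.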

How the data were processed

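The deposited table holds 1 intensity per probe and array, on a linear scale. Per the labels' protocols, aminoallyl-cRNA from 500 ng of total RNA was labelled with Cy5 and hybridised to a Toray oligonucleotide array. How the authors scanned the arrays, corrected background or normalized is not given in the sources used here. Some values lie under 0, which shows that background had been subtracted before deposit.

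Intensities of the 24177 probes above 0 on both arrays were taken to log2 and quantile normalized with limma 3.58.1 in R 4.3.3. The reason was that the array medians over all probes differed by -0.12 on the log2 scale. Over the probes above 0 alone the difference was smaller. On simulated data, made from the levels of these 24177 probes, 100 probes shifted by -1 and 100 shifted by 2 on the log2 scale came out with median log2 ratios of -1.04 and 1.93. Both simulated arrays had the same levels plus random noise, without a difference in scale. The simulation therefore shows only that the normalization left known shifts in place. Probes with a mean log2 level at or above the median were kept (12090 probes). Of all probes 13395 had 1 symbol, none several, and 10872 are unnamed here. Of 12474 symbols, 2285 were updated through the RefSeq table of GRCh38.p14. The brightest kept probe stood for a gene. With 1 array per group no test was possible, and 2-fold was used as the size threshold. The number of arrays limits the precision.

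Members and lists were chosen with earlier results of these data known. Named were all member probes, in each list the kept genes at least 2-fold apart or else up to 3 of the most distant, and the 5 genes nearest to GPD1L. A few other list members, given to show the spread or the floor, were chosen after their values were seen. The 8 alternatives changed the normalization, the offset before log2, the level filter or the choice of probe.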

Additional observations from a re-analysis of the deposited data

How the results depend on the processing

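GPD1L and GPD2 kept their direction under all 8 alternatives. Those that changed only the level filter or the choice of probe could not move their ratios. An offset keeps the order of the readings, and the scalings differed by little beside ratios of this size. The kept direction was thus close to fixed in advance and is no independent support. The counts of genes at least 2-fold apart, lower and higher were 415, 213 and 202 as reported. They were 181, 94 and 87 with an offset of 50, 1736, 862 and 874 with no level filter, and 192, 97 and 95 when the filter was raised to the 75th percentile. An offset shrinks ratios of dim probes by construction, and the filters change how many genes are counted: 12405 without one and 3467 with the stricter one, in place of 6684. Without normalization 30.6% of the genes 2-fold apart were higher, in place of 48.7%. FGFRL1 moved to -3.13 with an offset of 10 and to -2.15 with an offset of 50. No paired analysis was possible because each group has 1 array, and for the same reason no replicate could be left out. Signal limits GPD1, whose probe stayed under the filter in every setting that had one. List medians moved by 0.1 or more on the log2 scale in these cases. Without normalization, which puts the median of all genes at -0.12, they were -0.41 for the dihydroxyacetone phosphate list (reported as -0.18), -0.19 for the NADH and malate-aspartate list (0.00), -0.27 for glycerolipid synthesis (-0.15), -0.26 for the ubiquinone list (-0.11), -0.11 for oxygen sensing (0.01), -0.55 for reported targets (-0.43) and 0.091 for epithelial markers (0.20). With median scaling the first 2 of these lists stood at -0.34 and -0.12. Oxygen sensing stood at -0.11 with no level filter. Reported targets stood at -0.30 with an offset of 50, -0.31 with no level filter and -0.24 with the stricter filter.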
